A study of Mus musculus with 4 samples.

Results

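The TRIM (tripartite motif) genes were followed through 4 states of mouse bone-marrow-derived macrophages, which are macrophages grown from marrow with macrophage colony stimulating factor. Members were all genes of the deposited table whose probe carried a single symbol made of "Trim" and a number. There were 59 of them among 19938 genes with a single symbol, and each was measured by 1 probe, here meaning 1 gene-level entry of an Affymetrix array. Trim30e-ps1, a pseudogene by its RefSeq symbol, met the same rule and was kept. The states were LPS/zVAD/Nec-1, LPS/zVAD, LPS and Control, all in marrow cells of female BALB/c mice matured for 7 days with L929-conditioned medium. LPS is the bacterial ligand of TLR4 and was given at 10 ng/ml. The caspase inhibitor zVAD was used at 50 µM, and Nec-1 (necrostatin-1), which inhibits the kinase RIPK1, at 30 µM, while Control cells had none of the 3 agents. Every state had 1 array. No p-value or spread between replicates can therefore be given, and each ratio below compares 1 array with 1 array. The labels do not say how many mice gave the cells. Treatment times are not given, and no array here had an inhibitor without LPS or Nec-1 without zVAD.

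TRIM proteins typically carry a RING finger, which gives ubiquitin ligase activity, followed by B-box and coiled-coil domains and a variable end that picks the target. Many act in innate immunity. They attach ubiquitin to sensors and adaptors upstream of NF-kB and IRF factors, or bind viral parts directly, and a subset is known to be induced by interferon through promoter elements named ISREs. Others serve as chromatin cofactors, cytoskeletal proteins or muscle proteins.

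All 8 macrophage markers (among them Adgre1, Csf1r and Cd14) lay above the median of all deposited values (log2 6.47, called the filter level here) on all 4 arrays. All 7 neutrophil markers did so too. Under the filter level on all 4 arrays were 3 of 4 B cell markers, 4 of 6 T and NK cell markers, 2 of 4 dendritic cell markers, 1 of 4 stromal markers and the 1 erythroid marker measured. The arrays correlated over probes at Pearson r between 0.959 (LPS/zVAD with Control) and 0.992 (LPS/zVAD/Nec-1 with LPS).

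A gene entered the counts if at least 1 of its 4 signals reached the filter level. Of the 59 TRIM genes, 37 passed and 22 did not. Those left out include Trim63 and Trim55, which encode muscle RING finger proteins, Trim9, known from neurons, Trim42, Trim38 and the muscle membrane repair gene Trim72. Their signals ran from log2 4.94 to 6.45, and the 4 signals of any one of them spanned at most 0.70 on the log2 scale. The filter level is not a measured background, so whether these genes were detected was not tested. In the counts that follow, a gene is called higher or lower where the 2 arrays named are 2-fold or more apart.

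Promoter sequence is shown first, and the genes that differed with LPS can be read against it. The rule for members did not use it, but the motifs were chosen with earlier results of these data known. Each RefSeq promoter window (GRCm38.p6) runs from 250 bases before to 50 bases after an annotated start, and 46 of the 59 members have at least 1. The windows were searched on both strands for GAAANNGAA, the core of an interferon-stimulated response element (ISRE), which reads TTCNNTTTC on the opposite strand. The stretches below are the matches in genes that were higher with LPS, written 5′ to 3′ on the strand of the gene, with the matching bases in capitals.
Trim30d (chr7:104507851-104507919, minus strand): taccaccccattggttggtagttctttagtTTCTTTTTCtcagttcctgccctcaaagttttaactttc
Trim30a (chr7:104465190-104465258, minus strand): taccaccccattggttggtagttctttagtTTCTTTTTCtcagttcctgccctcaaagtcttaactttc
Trim12c (chr7:104353339-104353407, minus strand): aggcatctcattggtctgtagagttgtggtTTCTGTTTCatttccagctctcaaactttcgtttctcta
Trim34a (chr7:104244438-104244486, plus strand): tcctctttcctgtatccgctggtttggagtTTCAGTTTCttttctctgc
Trim21 (chr7:102565453-102565499, minus strand): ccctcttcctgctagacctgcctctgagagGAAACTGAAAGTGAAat
Trim25 (chr11:88999364-88999432, plus strand): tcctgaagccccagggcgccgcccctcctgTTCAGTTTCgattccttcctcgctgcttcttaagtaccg
Trim26 (chr17:36836957-36837031, plus strand): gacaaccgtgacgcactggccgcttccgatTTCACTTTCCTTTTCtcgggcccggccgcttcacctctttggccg

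Only the bases from 250 before to 50 after a start were searched, so every match lies near one by construction. Counted from the annotated start, the first base of the match was at -40 in Trim30d, at -35 in Trim30a (the stretch shown is from 1 of its windows), at -28 in Trim12c, at -9 in Trim25 and at -159 in Trim26. It was past the start in Trim34a, at 11, and in Trim21, at 13. Trim21 and Trim26 each hold 2 overlapping matches. The stretches shown for Trim30d and Trim30a are identical at 68 of 69 bases. A second Trim30a window, not shown, holds its match at 3. The stretch around that match is identical to the Trim30d stretch at 40 of 57 aligned bases.

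Of the 9 TRIM genes that were higher with LPS and have a promoter window, 7 hold a match, and the exceptions are Trim6 and Trim13. Trim12c, Trim30a, Trim30d and Trim34a stand in 1 run of neighbouring TRIM genes on chromosome 7, so the 7 are not separate cases. Among the 17 members past the filter that have a window and stayed under 2-fold with LPS, 0 do, and among the 3 lower ones (Trim27, Trim28 and Trim37) 0 do. Over all 27025 genes with a window, 9.76% hold at least 1 match. That share takes in genes of any signal and any response to LPS. The share among all genes higher with LPS was not counted, so whether the 7 of 9 is particular to TRIM genes was not tested. The remaining 3 members with a match, Trim12a, Trim2 and Trim7, were under the filter level on every array. A second motif, TTCNNNGAA (the GAS element of STAT proteins), was found in 0 of the 9 higher genes, in 2 of the 17 and in 9.55% of all genes. GGANNTTCC, a kB-like motif that reads GGAANNTCC on the opposite strand, was found in 0 of the 9, in 1 of the 17 (Trim71), in Trim28 among the lower genes and in 4.86% of all genes. Since neither occurred in the 9 genes, no match there overlaps one of the ISRE-like matches. These are matches of letters in a 300-base window, not measured binding, and no test was made on them.

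The first comparison, LPS with Control, asked how the family responds to the bacterial ligand. Of the 37 TRIM genes past the filter, 10 were higher with LPS (27.0%) and 3 lower (8.11%), where 8.24% of all 12203 genes past the filter were higher and 7.20% lower. The median log2 ratio of the 37 was -0.06, beside -0.12 for all genes. The quartiles of the members' ratios were -0.48 and 1.03, against -0.42 and 0.25 for all genes, so the family reached further up around a median near 0. The 10 higher genes were also the only ones past 1.5-fold in that direction, where 14.4% of all genes were. The higher genes all fall in a hand-made list of TRIM genes, called the innate and antiviral group here. That list was drawn up with earlier results of these data known, so their place in it is not an independent result. Of the 18 measured members of that group, 16 passed the filter, 10 were higher and 1 was lower. Over the 16 the median log2 ratio was 1.15.

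**Figure D1:**
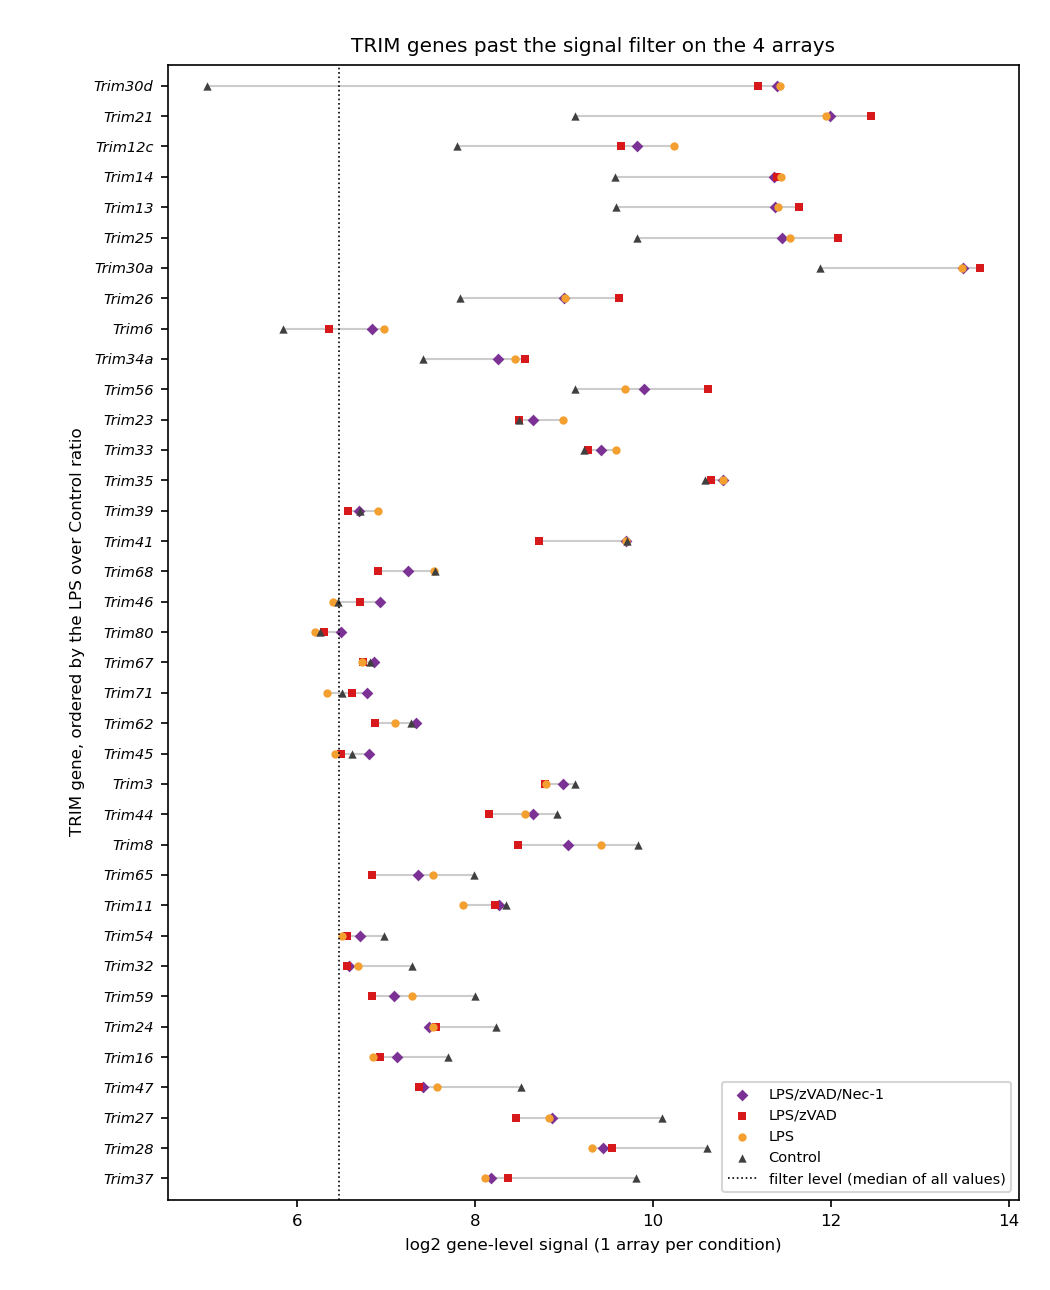
Log2 gene-level signals of the 37 TRIM genes past the filter, 1 point per array and gene, ordered from the highest LPS over Control ratio (top) to the lowest; the dotted line is the filter level of log2 6.47. The genes at the top have the 3 arrays with LPS to the right of Control, the genes at the bottom to the left of it.

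Trim30d had the highest ratio of the family. This PRYSPRY-type gene belongs to the mouse Trim30 group, whose best known product, TRIM30a, restrains NF-kB signalling by acting on TAB2 and TAB3. Its log2 signals were 11.39 with LPS/zVAD/Nec-1, 11.18 with LPS/zVAD, 11.42 with LPS and 4.98 in Control. The Control signal lay under the filter level, and counted from that level the gene was at least 31.0-fold higher with LPS. As deposited its log2 ratio of 6.45 ranked 20 from the top among the 12203 genes, a rank that the low Control signal leaves unsettled. Its close relative Trim30a had a log2 signal of 13.48 with LPS/zVAD/Nec-1, 13.68 with LPS/zVAD, 13.48 with LPS and 11.88 in Control, and was 3.03-fold higher with LPS than in Control. Sequences of these relatives resemble each other, so hybridization of one transcript to the probe of the other cannot be told apart from its own signal here.

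Trim21, an intracellular receptor for the Fc part of antibodies as well as a ubiquitin ligase, came next in log2 ratio. It had log2 signals of 11.99 with LPS/zVAD/Nec-1, 12.46 with LPS/zVAD, 11.94 with LPS and 9.12 in Control, so it was 7.06-fold higher with LPS than in Control. Trim12c, a mouse paralog of Trim5, had 9.82 with LPS/zVAD/Nec-1, 9.64 with LPS/zVAD, 10.23 with LPS and 7.80 in Control, and was 5.40-fold higher with LPS. In both genes all 3 arrays with LPS stood far above Control.

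A group of signalling ligases and adaptors showed similar ratios. Trim14, which lacks a RING finger and serves as an adaptor at MAVS, had log2 signals of 11.36 with LPS/zVAD/Nec-1, 11.40 with LPS/zVAD, 11.44 with LPS and 9.57 in Control, and was 3.65-fold higher with LPS. Trim13, an endoplasmic reticulum ligase known to restrain MDA5 signalling, had 11.37 with LPS/zVAD/Nec-1, 11.64 with LPS/zVAD, 11.40 with LPS and 9.59 in Control, a 3.52-fold difference between LPS and Control. For Trim25, the ligase that ubiquitinates the RNA sensor RIG-I, the signals were 11.45 with LPS/zVAD/Nec-1, 12.08 with LPS/zVAD, 11.54 with LPS and 9.82 in Control, and LPS was 3.28-fold above Control. In none of these genes did an array with LPS come near Control. Trim26 was 2.27-fold higher (9.004 and 7.82) and Trim34a 2.04-fold (8.44 and 7.42), just past the threshold. Trim34a stood at 8.26 with LPS/zVAD/Nec-1 and 8.56 with LPS/zVAD. Trim6, whose human product builds ubiquitin chains that activate the kinase IKKε, was at log2 6.84 with LPS/zVAD/Nec-1, 6.36 with LPS/zVAD, 6.97 with LPS and 5.84 in Control. Its Control signal lay under the filter level. As deposited the gene was past the threshold, and counted from that level it was at least 1.41-fold higher.

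Of the 3 lower genes, Trim27 belongs to the innate and antiviral group and Trim28 and Trim37 do not. Trim37, a ligase known from centrosomes and peroxisomes, had log2 signals of 8.18 with LPS/zVAD/Nec-1, 8.37 with LPS/zVAD, 8.11 with LPS and 9.81 in Control, a log2 ratio of -1.70 with LPS. Trim28 (KAP1), the corepressor that KRAB zinc finger proteins recruit to silence retroelements, had a ratio of -1.29, with signals of 9.44 with LPS/zVAD/Nec-1, 9.54 with LPS/zVAD, 9.31 with LPS and 10.60 in Control. Trim27, a ligase known to restrain IKK signalling, had a ratio of -1.28, with signals of 8.86 with LPS/zVAD/Nec-1, 8.45 with LPS/zVAD, 8.83 with LPS and 10.10 in Control. In each of these genes the 3 arrays with LPS lie together, below Control.

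Another 5 genes were lower by at least 1.5-fold without reaching 2-fold. Trim47 had a log2 ratio of -0.95, Trim16 -0.84, Trim24, a bromodomain cofactor of nuclear receptors, -0.71, Trim59, a membrane-bound member linked to proliferation, -0.71, and Trim32, an NHL-repeat ligase, -0.61. With these, 8 of 37 members (21.6%) were lower by 1.5-fold or more, beside 17.3% of all genes. Among the bromodomain genes past the filter, Trim33 differed from Trim28 and Trim24 in sign, at 0.36. Markers of dividing cells were lower in the same comparison. All 9 measured genes of that list were lower, beside 7.2% of all genes, at a median log2 ratio of -1.85. Their linear signals summed to 7594 with LPS and 25125 in Control. Of the 7 neutrophil markers, S100a9 and Ly6g were higher, at log2 ratios of 1.12 and 1.03, where 8.24% of all genes were higher. The other 5 were under 2-fold apart, from -0.13 (Mpo) to 0.73 (S100a8). The median of the 7 was 0.31, and their linear signals summed to 3862 with LPS and 2706 in Control. The part of either difference in the TRIM values was not tested. In bulk RNA, fewer cells of a type and less RNA per cell cannot be told apart.

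The remaining members were under 2-fold apart, with log2 ratios from -0.95 (Trim47) to 0.55 (Trim56). Trim35, a ligase known to act on IRF7, had log2 signals of 10.79 with LPS and 10.58 in Control, and Trim8, which ubiquitinates TAK1, 9.41 and 9.83. Trim41 stood at 9.70 and 9.71. Trim23, an ARF-domain member, was at 8.98 and 8.49, Trim39 at 6.90 and 6.70, and the NHL-repeat gene Trim3 at 8.80 and 9.12. Thus not every TRIM gene with a known part in innate signalling was higher with LPS: of the 16 past the filter, Trim8, Trim23, Trim35, Trim56 and Trim65 were within 2-fold of Control.

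**Figure D2:**
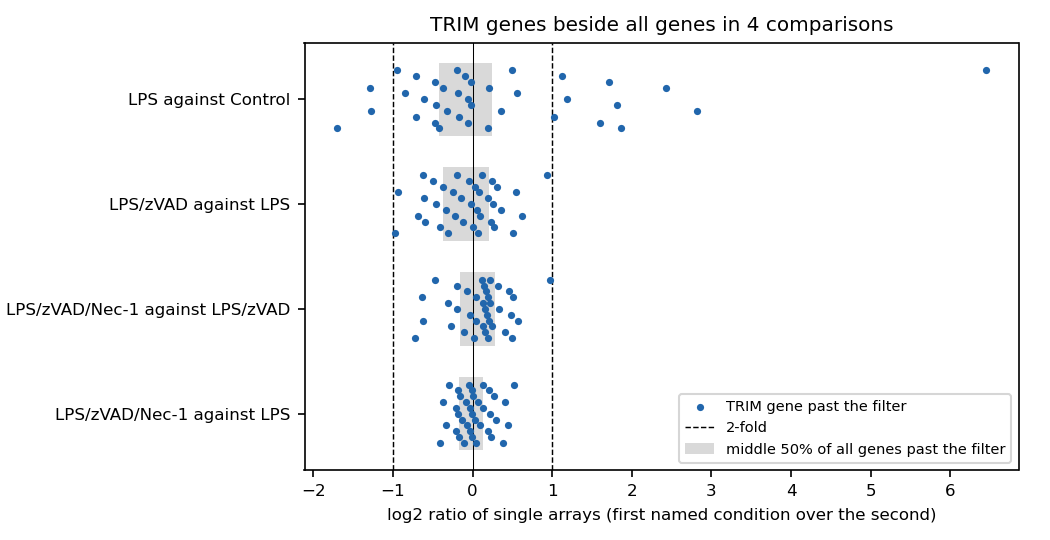
Log2 ratios of single arrays for the 37 TRIM genes past the filter (points) in the 4 comparisons, with the interquartile range of all 12203 genes past the filter as grey bars and 2-fold as dashed lines. Points pass the dashed lines in the comparison of LPS with Control, 10 above and 3 below, and in none of the other comparisons.

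The 2 largest runs of neighbouring TRIM genes gave different pictures. In the RefSeq gene order of chromosome 7, 11 TRIM genes from Trim6 to Trim30e-ps1 stand together with at most 1 other protein-coding gene between neighbours, and 7 of them were measured by a single-symbol probe. In that order the log2 ratios of LPS to Control were 1.13 for Trim6, 1.03 for Trim34a, 0.64 for Trim12a, 2.43 for Trim12c, 1.60 for Trim30a, 6.45 for Trim30d and 0.61 for Trim30e-ps1. All 7 were above 0, and all 5 that passed the filter were past 2-fold as deposited. Trim6 and Trim30d were under the filter level in Control and passed it only through arrays with LPS, so the 5 depend in part on the filter. Counted from that level, Trim6 was at least 1.41-fold higher. Trim12a and Trim30e-ps1 lay under the filter level on every array. On chromosome 17 the 5 genes Trim26, Trim15, Trim10, Trim40 and Trim31 are direct neighbours. There Trim26 alone passed the filter and was higher with LPS, while the other 4 had log2 ratios from -0.23 (Trim40) to 0.00 (Trim31) at signals between 5.02 and 5.79. Trim21 and Trim68, separated by 7 protein-coding genes on chromosome 7, differed too, with log2 ratios of 2.82 and -0.02.

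**Figure D3:**
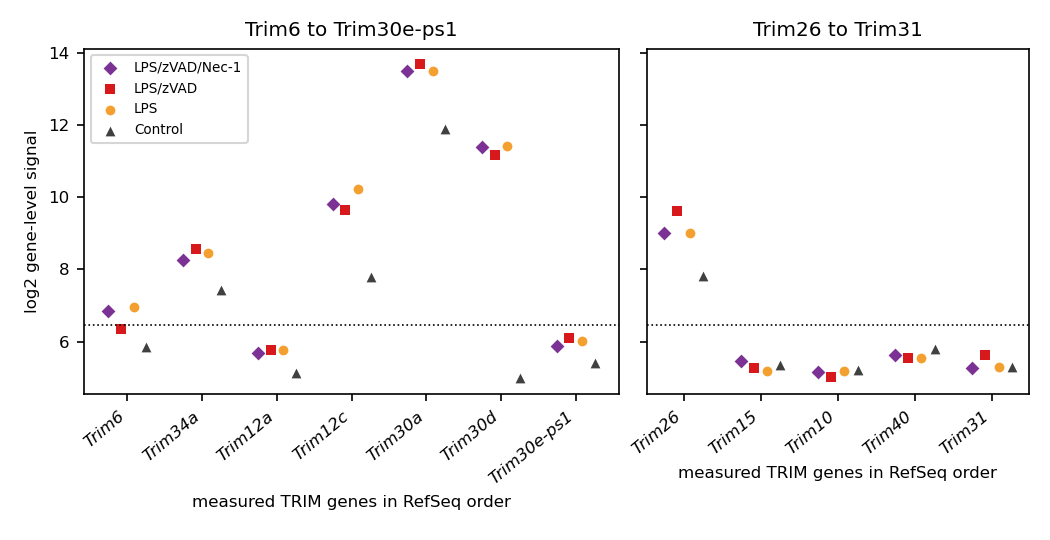
Log2 signals on the 4 arrays for the measured TRIM genes of the chromosome 7 run (left, Trim6 to Trim30e-ps1) and the chromosome 17 run (right, Trim26 to Trim31), in RefSeq gene order; the dotted line is the filter level. On the left Control is the lowest point of each gene; on the right Trim26 is the gene above the filter level.

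The response was then followed into the arrays with inhibitors. Of the 37 genes, 8 were higher and 3 lower than Control on each of the 3 arrays with LPS (21.6% and 8.11%), beside 5.15% and 4.76% of all genes. The 8 were Trim12c, Trim13, Trim14, Trim21, Trim25, Trim26, Trim30a and Trim30d, and the 3 were Trim27, Trim28 and Trim37. These arrays share the Control array, so they are not independent looks at the response. Set against Control, LPS/zVAD had 10 higher and 7 lower members (27.0% and 18.9%, beside 8.79% and 10.7% of all genes). The lower ones were Trim27, Trim28, Trim37, Trim47, Trim59, Trim65 and Trim8, while Trim56 was among the higher ones at a log2 ratio of 1.49. LPS/zVAD/Nec-1 had 8 higher and 4 lower (beside 6.85% and 7.68% of all genes).

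LPS/zVAD and LPS differ by the caspase inhibitor. None of the 37 TRIM genes was 2-fold apart in this comparison, where 3.25% of all genes were higher and 3.59% lower. Their median log2 ratio was -0.02, beside -0.05 for all genes, and their interquartile range was 0.60, beside 0.57. The 10 genes that were higher with LPS went both ways here. Their log2 ratios were -0.25 for Trim30d, 0.51 for Trim21, -0.60 for Trim12c, -0.04 for Trim14, 0.24 for Trim13, 0.54 for Trim25, 0.20 for Trim30a, 0.62 for Trim26, -0.61 for Trim6 and 0.12 for Trim34a. In the same comparison Ifnb1, the interferon beta gene, had log2 signals of 11.62 with LPS/zVAD and 6.48 with LPS.

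The largest differences were just short of 2-fold. Trim41, a RING ligase whose human product is known to act on influenza nucleoprotein, had log2 signals of 9.69 with LPS/zVAD/Nec-1, 8.72 with LPS/zVAD, 9.70 with LPS and 9.71 in Control. The LPS/zVAD array was 1.97-fold below the LPS array, and the other 3 arrays lay between 9.69 and 9.71. Trim8 had 9.04 with LPS/zVAD/Nec-1, 8.48 with LPS/zVAD, 9.41 with LPS and 9.83 in Control, and was 1.91-fold lower with LPS/zVAD than with LPS. Trim65, a ligase for MDA5, was 1.61-fold lower (log2 6.84 and 7.53), Trim68 1.54-fold (6.91 and 7.53), and Trim12c 1.51-fold (9.64 and 10.23). Trim6 (6.36 and 6.97) was under the filter level with LPS/zVAD, and counted from that level it was at least 1.41-fold lower. As deposited, 6 members (16.2%) were lower by 1.5-fold or more, beside 13.2% of all genes.

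Trim56 and Trim26 differed the other way. Trim56, a ligase tied to cGAS and STING signalling, had log2 signals of 9.90 with LPS/zVAD/Nec-1, 10.62 with LPS/zVAD, 9.68 with LPS and 9.13 in Control. It was 1.92-fold higher with LPS/zVAD than with LPS, and after cyclic loess scaling its log2 ratio was 1.07, past the threshold. Centring each array on its median put Trim41 past the threshold in the lower direction, at -1.02. Trim26 was 1.53-fold higher, with log2 signals of 8.994 with LPS/zVAD/Nec-1, 9.62 with LPS/zVAD, 9.004 with LPS and 7.82 in Control. Trim25 and Trim21 followed at log2 ratios of 0.54 and 0.51, so that the LPS/zVAD array was the highest of the 4 for all of these genes. With 2 of 37 (5.41%) higher by 1.5-fold or more, beside 7.96% of all genes, the share of such members was no larger than the background.

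**Figure D4:**
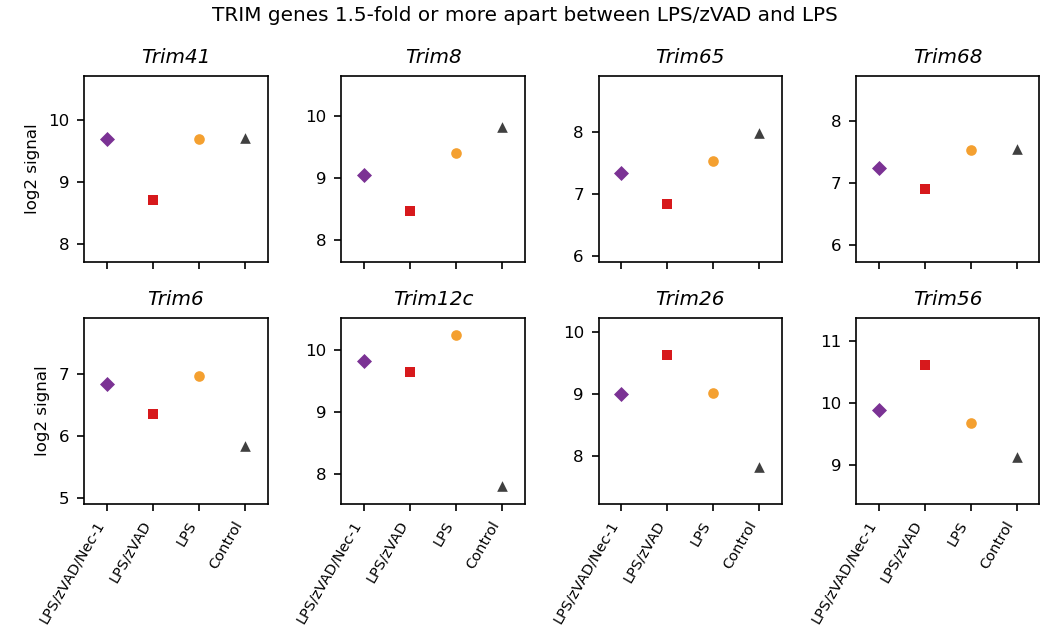
Log2 signals on the 4 arrays for the 8 TRIM genes 1.5-fold or more apart between LPS/zVAD and LPS, from the lowest ratio (Trim41) to the highest (Trim56); every panel spans 3 log2 units. The LPS/zVAD point stands below the LPS point in 6 panels and above it in Trim26 and Trim56.

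LPS/zVAD/Nec-1 and LPS/zVAD differ by the RIPK1 inhibitor, and were compared as 1 array with 1 array. Again 0 of 37 TRIM genes were 2-fold apart, where 1.14% of all genes were higher and 3.32% lower. The median log2 ratio was 0.15, beside 0.07 for all genes. Trim41 was 1.96-fold higher with Nec-1 (2.70% of members past 1.5-fold, beside 7.31% of all genes). Trim56 was 1.65-fold, Trim25 1.55-fold and Trim26 1.54-fold lower with Nec-1 (3 members, 8.11%, beside 8.19%). Trim8 and Trim65 had log2 ratios of 0.57 and 0.51. This comparison and the one before it share the LPS/zVAD array, so their differences are not independent.

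The comparison of LPS/zVAD/Nec-1 with LPS uses neither that array nor Control, and here the TRIM ratios had their narrowest range from lowest to highest. Their interquartile range was 0.35, beside 0.30 for all genes. For the same members it was 0.32 between LPS/zVAD/Nec-1 and LPS/zVAD, so by that measure they were not closest here. All 37 genes were under 1.5-fold apart, as were 96.5% of all genes (0.738% were higher and 2.75% lower by that much), and 0 passed 2-fold, beside 0.0738% of all genes higher and 0.541% lower. The ratios ran from -0.41 for Trim12c to 0.52 for Trim46, around a median of 0.00. Next to these ends were Trim71, an NHL-repeat gene known from early development, at 0.45 and Trim11 at 0.40 (log2 8.27 with LPS/zVAD/Nec-1 and 7.87 with LPS), and Trim8 at -0.37 and Trim23 at -0.34. Trim46 (6.93 and 6.40) and Trim71 (6.78 and 6.33) were under the filter level with LPS, so that their ratios rest on weak signals. Trim41 stood at log2 9.69 with LPS/zVAD/Nec-1 and 9.70 with LPS, Trim26 at 8.994 and 9.004, Trim56 at 9.90 and 9.68 and Trim8 at 9.04 and 9.41.

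Genes that act with TRIM proteins gave a mixed picture. Their counts stand beside 8.24% of all genes past the filter that were higher with LPS than in Control. With LPS/zVAD against LPS, 3.25% of all genes were higher and 3.59% lower. Of 11 measured genes of interferon signalling, 5 were higher with LPS than in Control, among them Irf7 (log2 13.28 and 9.19), Stat2 (12.46 and 9.53) and Irf1 (11.46 and 8.63). Ifnb1 is also among the 5, but only as deposited. Its Control signal of 5.42 lay under the filter level of 6.47, which its LPS signal of 6.48 barely passed. Counted from that level, Ifnb1 was not 2-fold apart. With LPS/zVAD against LPS, Ifnb1 and Irf1 (12.81 and 11.46) were higher and Tyk2, a kinase of the interferon receptor (9.36 and 10.84), lower. On the array that also had Nec-1 the Ifnb1 signal was 7.51, a log2 ratio of -4.11 to the LPS/zVAD array. Tyk2 went the other way there, at a ratio of 1.31. Ifnb1 was also higher with LPS/zVAD/Nec-1 than with LPS, at a log2 ratio of 1.03, where 0.0738% of all genes were higher. It was the only gene of the 11 that was 2-fold apart in that comparison. All 4 measured genes of the ISG15 conjugation pathway, for which human TRIM25 is a known ligase, were higher with LPS, led by Herc6 at a log2 ratio of 3.82 and Usp18 at 3.67. None of the 4 was 2-fold apart with LPS/zVAD against LPS, where their median log2 ratio was -0.10. Of 13 sensors and TRAF-pathway partners, 7 were higher with LPS, including the RNA sensor genes Ifih1 (MDA5) at 3.89 and Ddx58 (RIG-I) at 2.77. With LPS/zVAD against LPS, Cgas was higher (9.002 and 7.42), while Mavs (8.69 and 9.85) and Ikbke (11.07 and 12.40) were lower. The 8 measured genes of ubiquitin conjugating (E2) enzymes were all under 2-fold apart in each of the 4 comparisons.

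TRIM proteins that go by other symbols were not counted as members. Pml, the organizer of nuclear bodies, was at log2 11.25 with LPS/zVAD/Nec-1, 11.49 with LPS/zVAD, 11.15 with LPS and 9.21 in Control. Mefv, which encodes pyrin, was at 6.86 with LPS/zVAD/Nec-1, 6.62 with LPS/zVAD, 7.79 with LPS and 5.78 in Control, where it lay under the filter level. It was lower with LPS/zVAD than with LPS, at a log2 ratio of -1.18. Mid1, a microtubule-binding member, was at 10.30 with LPS/zVAD/Nec-1, 9.47 with LPS/zVAD, 10.27 with LPS and 9.48 in Control, so the LPS/zVAD and Control arrays stood together below the other 2.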

How the data were processed

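The authors deposited 1 log2 signal per gene-level probe and array. The submitters' processing notes name Affymetrix Expression Console as the software. Its version and how it corrected background, summarised and scaled are not given in the sources. That values are log2 follows from their range (array medians of 6.41 to 6.52). The number of arrays limits precision. Symbols came from the platform annotation: 21789 of 35556 probes had 1 symbol, 1621 several and 12146 none. All 59 members matched RefSeq gene identifiers, and 0 symbols changed.

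A gene with several probes was represented by the one with the highest mean of 4 arrays. Genes whose highest signal reached log2 6.47 were counted (12203). Ratios are differences of log2 signals between 2 arrays, called at 2-fold. The rule was run on simulated data with changes larger than 2-fold and an assumed noise. That run checks the code only, since the noise between replicates is not known here. No test across genes was made. Alternatives were 3 scalings (median centring, quantile, and cyclic loess with limma 3.58.1 in R 4.3.3), 2 filters, mean of probes, thresholds of 1.5-fold and 3-fold, and signals raised to the filter level. Other steps used Python 3.11.15 with pandas 2.3.3.

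Members, gene lists and motifs were chosen with earlier results of these data known, and the comparisons of the inhibitor arrays with Control were added after the values were seen. Named genes were members 2-fold apart, the 3 highest and lowest ratios of each comparison, key members and partner genes; some others are named with their values. Levels of different probes were not ranked, although the rule for names provided for it. Promoter windows are RefSeq's for GRCm38.p6. In 1716 pairs of overlapping windows on opposite strands, 1716 read as reverse complements. No protein sequences were used here.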

Additional observations from a re-analysis of the deposited data

Results flagged for a closer look

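Probes annotated with several symbols entered no comparison. Of these, 6 list at least 1 TRIM symbol, 4 passed the filter, and 3 were 2-fold or more higher with LPS than in Control, with log2 ratios of 1.59 (9.40 and 7.82), 2.12 (7.56 and 5.44) and 1.67 (9.33 and 7.66). They are given because the LPS signal was above Control in data that the report leaves out. Which gene gives the signal of such a probe cannot be told apart here. The Control signal of the second lay under the filter level.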

How the results depend on the processing

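The counts of 10 higher and 3 lower TRIM genes with LPS against Control held the same genes under median centring, quantile normalization and cyclic loess. Centring and loess moved the median of all genes by 0.11 log2 units in that comparison, and the TRIM median of -0.06 became 0.0456 with centring, 0.0035 with quantile normalization and 0.068 with loess. Higher members numbered 10 at 1.5-fold and 7 at 3-fold, where Trim6, Trim26 and Trim34a dropped out, beside 14.4% and 4.47% of all genes. With the filter 1 log2 unit higher, 9 of 27 members were higher, beside 10.3% of all genes. Lower members numbered 8 at 1.5-fold and 1 (Trim37) at 3-fold. For LPS/zVAD against LPS, where 0 were called as deposited, 1 was higher (Trim56) after loess and 1 lower (Trim41) with centring, and 2 were higher and 6 lower at 1.5-fold. For LPS/zVAD/Nec-1 against LPS/zVAD, 1 was higher and 3 lower at 1.5-fold. Without the filter the median of all 59 was 0.057 for LPS/zVAD against LPS and 0.0356 for LPS/zVAD/Nec-1 against LPS. The second of these medians was 0.0166 with quantile normalization and 0.0349 with loess over the members past the filter. With signals raised to the filter level, Trim6 with LPS was under 2-fold, at a log2 ratio of 0.50. The cause of these shifts was not tested, apart from the thresholds, filters and floor, which act by construction. Taking the mean of probes changed no member, since each has 1. In all, 85 of 100 alternative counts and medians stayed within 1.5 times (counts) or within 0.1 log2 units at the same sign (medians). Many of the 100 could not move. The mean of probes leaves every member as it was, and a count of 0 cannot rise with a higher threshold, a higher filter or the floor. The 85 is therefore no measure of how firm the results are. No replicate could be left out, and no paired analysis was possible because each condition has 1 array.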
